A study of Mus musculus with 19 samples.

Results

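The 6 genes described here, Ms4a4a, Ms4a4c, Ms4a6b, Ms4a6c, Ms4a6d and Ms4a7, are members of the mouse Ms4a family that were measured in macrophages of the cochlea, where sound is sensed. They are 6 of the 18639 gene symbols measured, and were taken by name across all 19 libraries. They were chosen by their levels in these libraries, high in sorted macrophages and low in the other cells, so that difference is given as a description without a test. RNA was sequenced from cells of CX3CR1 GFP/+ mice, in which green fluorescent protein (GFP) replaces a copy of Cx3cr1, a chemokine receptor gene of macrophages and related cells. All mice, the young controls included, carried this allele and so had a single working copy of Cx3cr1. Flow cytometry sorted GFP-positive cells, called macrophages, and GFP-negative cells, called nonmacrophages, with each isolate taken from 1 mouse. The groups were old cochlea macrophages (12 to 14 months, 4 libraries), young cochlea macrophages (1.5 months, 2 libraries), old cochlea nonmacrophages (4 libraries) and young cochlea nonmacrophages (4 libraries). Single young libraries came from auditory nerve macrophages and nonmacrophages, lateral wall macrophages and nonmacrophages, and an unsorted cochlea.

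Ms4a proteins cross the cell membrane several times and sit in the plasma membrane or in endosomes beside other receptors. The family began with CD20 of B cells (Ms4a1) and the beta chain of the high-affinity IgE receptor of mast cells (Ms4a2), and it also holds a group of genes used by myeloid cells. In mice, Ms4a4a associates with dectin-1 at the surface of macrophages, Ms4a6b was described in T cells as well as in myeloid cells, and Ms4a7 is widely used as a marker of macrophages at the borders of the brain. Human MS4A4A and MS4A6A are known for their link to the soluble form of TREM2, which at the cell surface is a lipid receptor of microglia. Macrophages of the cochlea live in the auditory nerve, among the spiral ganglion neurons, and in the lateral wall, which maintains the fluid that the sensory cells need.

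The members lie next to each other on mouse chromosome 19 (mm10, GENCODE M21), between positions 11321039 and 11604849, a span of 283.8 kb with 8 Ms4a genes. Ms4a7 (11321039 to 11336146) and Ms4a6d (11586604 to 11604849) are at the ends and run on the minus strand. Between them on the plus strand are Ms4a4a (11375523 to 11392790), Ms4a4c (11404770 to 11427246), Ms4a6c (11469366 to 11482192) and Ms4a6b (11516512 to 11531256). The other Ms4a genes of the span, Ms4a4b (11443553 to 11467055) and Ms4a4d (11536801 to 11558467), are no members, although their sequences are close to Ms4a4c. Because reads were 50 bases long, all words of that length in the exons were compared with all other annotated transcripts. Ms4a4a and Ms4a7 shared 0% of their words with another gene, Ms4a6d 2.69%, Ms4a6b 5.89% and Ms4a4c 8.19%, but Ms4a6c shared 56.9%, among others with Ms4a6b and the overlapping antisense gene BE692007. The level of Ms4a6c is therefore uncertain, and whether counting used strand is not given in the sources used here.

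The stretch just before the RefSeq start of Ms4a4c, of its neighbour Ms4a4b and of Ms4a4a is shown because the first and second of these genes look alike there but differed in where they were expressed. The sequences are from RefSeq on GRCm38.p6, plus strand, chr19:11407541-11407660 for Ms4a4c, chr19:11443438-11443557 for Ms4a4b and chr19:11375368-11375487 for Ms4a4a. Capitals mark GAGGAA, the core motif bound by PU.1, a transcription factor of myeloid and B cells.
Ms4a4c: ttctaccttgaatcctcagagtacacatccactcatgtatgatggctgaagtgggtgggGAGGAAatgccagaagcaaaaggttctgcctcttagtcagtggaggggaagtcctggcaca
Ms4a4b: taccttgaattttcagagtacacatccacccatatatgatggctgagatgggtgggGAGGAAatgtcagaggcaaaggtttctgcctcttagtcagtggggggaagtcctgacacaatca
Ms4a4a: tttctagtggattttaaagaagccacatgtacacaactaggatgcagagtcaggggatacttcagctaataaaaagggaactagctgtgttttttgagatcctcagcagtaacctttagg
The Ms4a4c and Ms4a4b stretches were identical at 105 of 124 aligned columns (84.7%), whereas Ms4a4c and Ms4a4a were identical at 52.2%. In Ms4a4c the motif began 61 bases before the start, and in Ms4a4b 64 bases before it. RefSeq promoters of 250 bases before to 50 bases after the start were found for 5 of the 6 members, in 6 windows. Searched on either strand, GAGGAA was in 2 of these windows (Ms4a4c and 1 of the Ms4a7 windows) and in 28.3% of 32851 mouse promoters. The longer PU.1 motif GAGGAAGT, which contains GAGGAA, was in none of the 6 and in 3.20% of all promoters. The C/EBP motif TTGCNNAA (10.8% of all promoters) and its palindrome TTGCGCAA (0.183%), the TATA box TATAAA (13.6%) and the E-box CACGTG (7.15%) were also in none of the 6. These matches describe letters only.

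The depth was 20.6 to 71.6 M reads per library (M, mega). Old macrophage libraries held 50.6 to 71.6 M reads with 16750 to 17282 genes detected, and young macrophage libraries 25.4 and 35.1 M with 11652 and 13532 genes, so depth and age cannot be told apart in macrophages. Levels are normalized reads, that is, read counts divided by a factor per library, and 3 reads were worth 1.38 to 5.33 normalized reads. The core macrophage list (14 of 15 genes measured) was far higher in the GFP-positive sort, with summed levels of 230281 to 391503 normalized reads in old cochlea macrophages and 4026 to 5582 in old nonmacrophages. The same sums were 885236 and 1172547 in young cochlea macrophages and 2430 to 5561 in young nonmacrophages. The GFP-positive libraries of the whole cochlea also held neuron markers (8 of 8 measured), which summed to 229957 to 260559 normalized reads in old macrophages and 136286 and 231750 in young macrophages, above the 7607 to 12797 of old and 4996 to 28777 of young nonmacrophages. In bulk libraries such as these, fewer cells of a type and less RNA per cell cannot be told apart.

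All 6 members were measured in every macrophage library, and each of the 8 macrophage libraries stood above each of the 10 nonmacrophage libraries for each member. Over all 18441 genes tested, 2.46% showed that pattern, and 23.3% did so within the old and 10.5% within the young whole cochlea. At least 4-fold higher in macrophages were all 6 members in the auditory nerve and in the lateral wall, as were 10.4% and 7.59% of all genes. Nothing is read from these shares, because the pattern chose the members. On the log2 scale the members' macrophage minus nonmacrophage differences ran between 5.99 and 8.13 in the old cochlea, 7.04 and 11.67 in the young cochlea, 10.82 and 13.52 in the auditory nerve, and 6.85 and 12.78 in the lateral wall. The lowest edge of the separation was Ms4a4c, with 223 normalized reads in young macrophage replicate 9 and 194 in young nonmacrophage replicate 2.

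**Figure D1:**
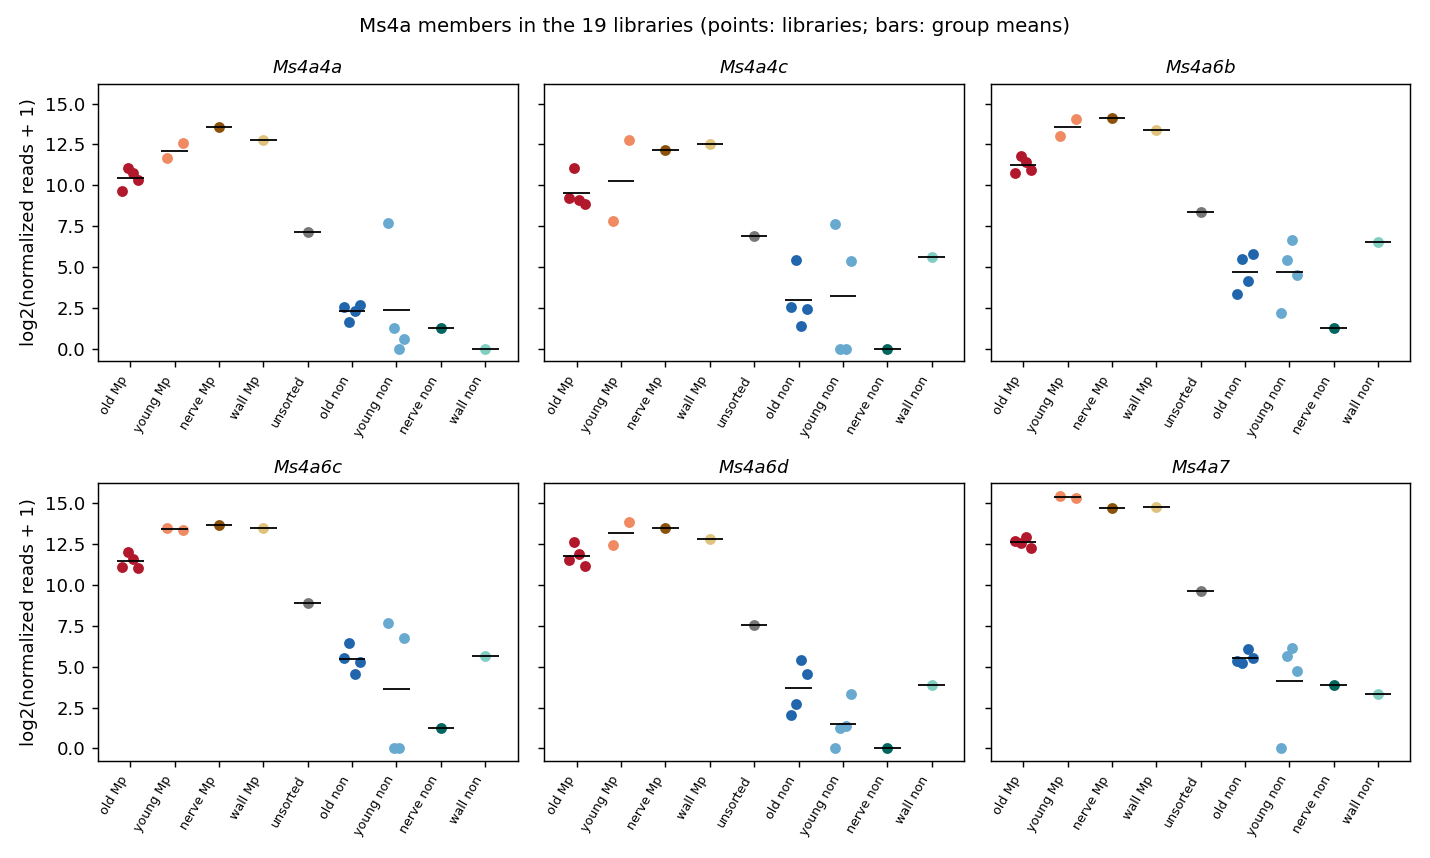
Levels of the 6 members, as log2 of normalized reads plus 1, in all 19 libraries (points; bars, group means of these log2 values; Mp, macrophage; non, nonmacrophage). Macrophage libraries are on the left of each panel, nonmacrophage libraries on the right, and the unsorted cochlea between them.

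Ms4a7 had the highest mean level of the members in old and in young cochlea macrophages, although Ms4a6d was higher in old replicate 7, and young libraries held several times more of it than old ones. It stood at 6603, 6021, 7712 and 4907 normalized reads in the old macrophage replicates 1, 7, 12 and 17, against 44725 and 41615 in the young replicates 9 and 15. The single young macrophage libraries of the auditory nerve and the lateral wall held 27051 and 27520 normalized reads. Every old library was thus below every young macrophage library, whatever its tissue. Outside the macrophages Ms4a7 had 40.6, 36.5, 67.3 and 46.1 normalized reads in old nonmacrophages, and 0, 49.0, 68.5 and 26.2 in young nonmacrophages. Nonmacrophages of the auditory nerve and lateral wall held 14.0 and 9.18, and the unsorted cochlea 807.

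Among the Ms4a6 genes, Ms4a6b and Ms4a6c had all old macrophage libraries below all young ones, as Ms4a7 did. Ms4a6b had 1699, 3573, 2711 and 1936 normalized reads in old macrophages, against 8227 and 17361 in young macrophages, 17627 in auditory nerve macrophages and 10839 in lateral wall macrophages. In nonmacrophages Ms4a6b reached 53.8 normalized reads in the old cochlea, 99.5 in the young cochlea, 1.40 in the auditory nerve and 93.3 in the lateral wall.

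Ms4a6c, whose reads can come from neighbouring genes, had 2204, 4168, 3142 and 2142 normalized reads in old macrophages and 11371 and 10582 in young macrophages. Auditory nerve and lateral wall macrophages held 13159 and 11314, so young libraries of all sources lay within a narrow band above the old ones. Its nonmacrophage levels were uneven, at 22.8 to 86.0 normalized reads in old libraries and 208, 0, 0 and 108 in young libraries.

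Ms4a6d, which in mouse macrophages is linked to the control of antigen presentation and of the inflammasome, was the Ms4a6 gene whose old and young macrophages overlapped. Its values were 2949, 6268, 3750 and 2278 normalized reads in old macrophages, and 5529 and 15113 in young macrophages. Old replicate 7 was above young replicate 9. In auditory nerve and lateral wall macrophages it stood at 11756 and 7140. Nonmacrophages held little of it, with 3.08, 5.51, 42.3 and 22.5 normalized reads in old libraries and 0, 1.36, 1.63 and 9.09 in young libraries.

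Ms4a4a, the partner of dectin-1, had 792, 2106, 1697 and 1257 normalized reads in old macrophages, against 3260 and 6053 in young macrophages, without overlap. Its highest level was in auditory nerve macrophages, at 12357, followed by lateral wall macrophages at 7015. Its nonmacrophage levels were low, with 2.06 to 5.49 normalized reads in old libraries, 1.40 in the auditory nerve and 0 in the lateral wall. Against the 3 reads that a count of 0 allows, the lateral wall difference was at least 1529-fold. Young nonmacrophage replicate 2 was apart from the other nonmacrophage libraries, with 210 normalized reads against 0 to 1.36 in the other young ones.

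Ms4a4c had the lowest mean level of the members in old and in young cochlea macrophages, and was the most variable member. In young replicate 15 Ms4a4a was lower (6053 normalized reads), and in old replicate 7 the levels of both were about equal. Old macrophages held 593, 2106, 552 and 466 normalized reads of Ms4a4c, and young macrophages 223 and 6963, so that the young libraries lay on either side of all old ones. Auditory nerve and lateral wall macrophages held 4503 and 5809. Over the 8 macrophage libraries its highest value was 31.2 times its lowest, against 6.14 times for Ms4a6c, 6.64 for Ms4a6d, 9.11 for Ms4a7, 10.4 for Ms4a6b and 15.6 for Ms4a4a. The lowest, in young replicate 9, rested on 127 reads. In nonmacrophages Ms4a4c had 1.67 to 42.0 normalized reads in old libraries and 194, 0, 0 and 40.6 in young ones.

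The age comparison asked whether macrophages of old mice express the members differently from those of young mice. The members were chosen by the sort difference, in which the same macrophage libraries take part, and with earlier results of these data known. All members passed the filter on low values. On the log2 scale the old minus young difference was -2.79 for Ms4a7 (SE 1.24, limma adjusted p = 0.104) and -2.33 for Ms4a6b (SE 1.05, limma adjusted p = 0.108). It was -1.97 for Ms4a6c (SE 1.84), -1.69 for Ms4a4a (SE 1.63), -1.37 for Ms4a6d (SE 1.07) and -0.73 for Ms4a4c (SE 2.07), with limma adjusted p between 0.348 and 0.816. In the fit of 14 libraries, 0 of 6 members passed the threshold of 0.05, and 2, Ms4a7 (0.0427) and Ms4a6b (0.0456), had an unadjusted p under 0.05, as did 43.3% of all genes. Over all genes 29.7% passed in either direction, 24.1% higher and 5.57% lower in old macrophages. The members' median difference was -1.83, beside a median of 0.88 and a 5th percentile of -1.52 over all genes tested. The scaling moved this background, since 4441 genes were higher and 1027 lower in old macrophages here, 3915 and 1884 with DESeq2, and 2292 and 2277 with quantile normalization, under which the median of all genes was -0.07.

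Whether Ms4a7 and Ms4a6b passed depended on the fit. The fit of 14 libraries took a common spread from all 4 groups, and Ms4a7 had a log2 SD of 0.27 in old macrophages, 0.07 in young macrophages, 0.38 in old nonmacrophages and 2.81 in young nonmacrophages, whose levels ran between 0 and 68.5 normalized reads. With only the 6 macrophage libraries, the same differences had limma adjusted p = 0.000945 for Ms4a7, 0.0134 for Ms4a6b and 0.00852 for Ms4a6c, whereas the other 3 members did not pass. In that fit 6.2% of all genes were called lower in old macrophages. With edgeR on the recovered reads Ms4a7 had an adjusted p = 0.0103 and Ms4a6b 0.04997, and with DESeq2 0.000901 and 0.0244, where 5.78% (edgeR) and 10.2% (DESeq2) of all genes were called lower. A pseudocount of 10 in place of 1 gave limma adjusted p = 0.00739 for Ms4a7 and 0.0393 for Ms4a6b, with 5.82% of all genes called lower. Under the 17 other settings tried the difference of Ms4a7 lay between -2.89 and -2.13 and that of Ms4a6b between -2.87 and -1.79, each passing in 4 settings. The differences of Ms4a4a, Ms4a6c and Ms4a6d were also negative in all 17, with Ms4a6d at -0.64 without young replicate 15 and -2.09 without young replicate 9, and that of Ms4a4c in 16, the exception being 1.75 without young replicate 15. With auditory nerve and lateral wall macrophages as the only young libraries, the difference of Ms4a7 was -2.13 (limma adjusted p = 0.201). In that setting tissue differed along with age.

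For 4 of the 6 members, Ms4a4a, Ms4a6b, Ms4a6c and Ms4a7, all old macrophage libraries were below both young cochlea macrophage libraries. Of all genes 13.4% had that order, and 31.7% the opposite order, which 0 of the 6 members had. The same 4 were also below the macrophage libraries of the nerve and the wall, an order that 7.27% of all genes showed. As means of normalized reads, old macrophages held 6311 ± 1170 of Ms4a7 (SD, n = 4) and young macrophages 43170 (n = 2), a level 6.84 times higher in young macrophages. The same ratio of young over old was 5.16 for Ms4a6b, 3.87 for Ms4a4c, 3.77 for Ms4a6c, 3.18 for Ms4a4a and 2.71 for Ms4a6d. In the authors' deposited table the unadjusted p was 8.33e-05 for Ms4a7, 0.00612 for Ms4a6b and 0.141 to 0.28 for the others.

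**Figure D2:**
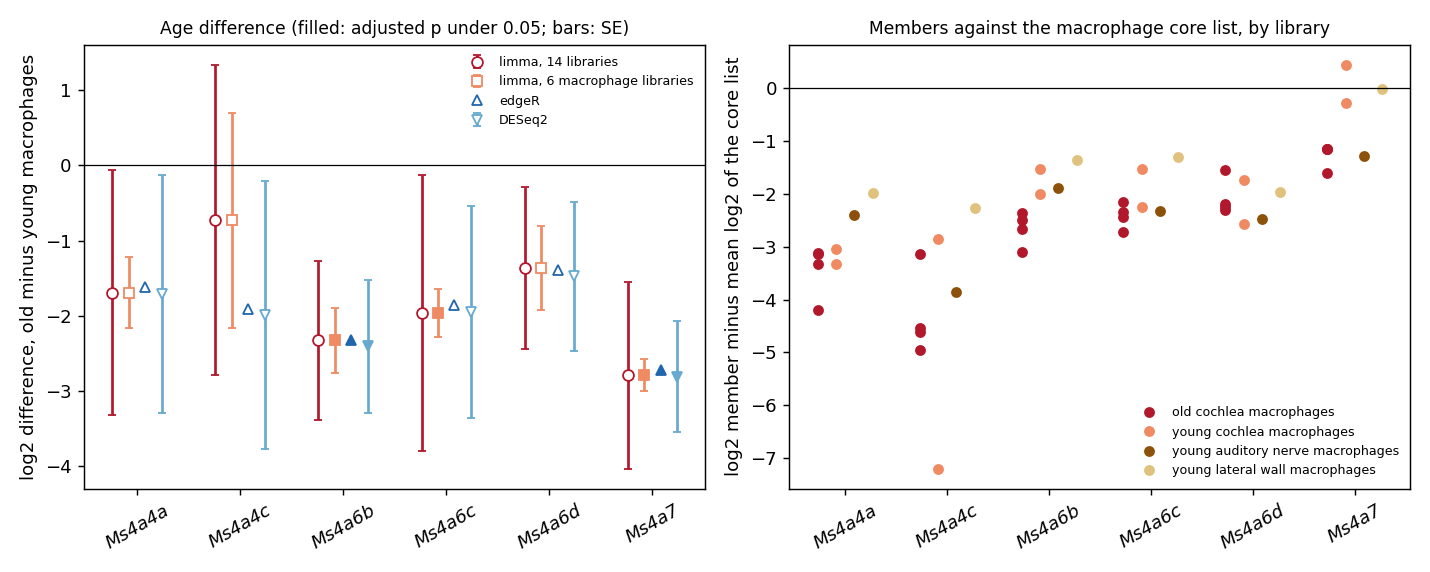
Left, log2 difference of old minus young cochlea macrophages for each member (bars, SE; edgeR gives none; filled, adjusted p under 0.05) in the 14-library and 6-library limma fits, edgeR and DESeq2. Right, log2 level of each member minus the mean log2 level of the core macrophage list in each macrophage library, where Ms4a7 and Ms4a6b of old libraries lie below both young cochlea libraries.

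Some other macrophage genes were lower in old macrophages as well. Of the core macrophage list 3 of 14 genes passed the test and all 3 were lower (C1qc, Fcgr3 and Tyrobp), with a median difference of -1.52. Among resident perivascular-type macrophage genes 2 of 10 fell (Cbr2 and Folr2), and of the microglia-type list 5 of 9 fell (among them Cst3, Sparc and Tmem119), with medians of -1.71 and -1.77. Sparc was not particular to macrophages, with means of 13119 and 57732.5 in old and young macrophages and 28239 and 132887 in nonmacrophages. It also fell in nonmacrophages (-2.01, limma adjusted p = 0.0155). In these lists Cd163 (4.27) and Sall1 (3.20) had positive differences that did not pass. The mean log2 level of the core list was 13.4 to 14.2 in old macrophages and 15.0 and 15.6 in young macrophages, a difference of -1.44. Over all genes 5.57% were called lower and 24.1% higher.

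Set against this core level within each library, Ms4a7 was -1.14, -1.61, -1.15 and -1.14 in old macrophages and 0.44 and -0.27 in young macrophages. The difference of the means was -1.35. The lateral wall library, at -0.02, lay with the young ones, but the auditory nerve library, at -1.28, lay inside the range of the old ones. Ms4a6b was -3.10 to -2.36 in old macrophages and -1.998 and -1.53 in young macrophages, with a difference of -0.89 and with the nerve (-1.89) and wall (-1.36) on the young side. For Ms4a6c (-0.52), Ms4a4a (-0.25), Ms4a6d (0.08) and Ms4a4c (0.72) the old and young cochlea libraries overlapped on this relative scale. For 2 of 6 members the old libraries were thus below both young ones, beside 1.26% of all genes, while 71.8% of all genes had the opposite order. Without the subtraction these shares were 13.4% and 31.7%. Subtracting a core level that was lower in old macrophages raises every gene in the old libraries, so the scale itself moves these shares. Nothing is read from them about the members.

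Some markers of other cells differed between the old and young macrophage libraries too. The counts below stand beside 24.1% of all genes called higher and 5.57% called lower in old macrophages by limma. Schwann cell and glia markers (8 of 8 measured, 6 higher in old) summed to 124581 to 376848 normalized reads in old macrophages and 70666 and 82745 in young macrophages, and fibroblast and matrix markers (8 of 8 measured, 4 higher in old) to 6565 to 9906 in old and 5271 and 12269 in young macrophages. Col1a1, Fbn1 and Col6a1 were at 0 in young macrophages. T cell and NK cell markers (12 of 12 measured, 6 lower in old) summed to 66.7 to 186 normalized reads in old macrophages, where Ncr1 was at 0, and to 3449 and 11592 in young macrophages, where Cd3e and Klrb1c were at 0. Dendritic cell markers (6 of 7 measured, 3 higher in old) summed to 1923 to 3144 normalized reads in old and 709 and 1714 in young macrophages, with Ccr7 at 0 in young. Mast cell markers (5 of 8 measured, 2 higher in old) summed to 1909 to 3548 in old and 0 and 1928 in young macrophages, with Kit and Hdc at 0 in young. The 2 higher ones were Gata2 and Kit, whose means were larger in old nonmacrophages (4647 and 916) than in old macrophages (2025 and 347). The log2 differences of Mcpt4 (-3.08), Fcer1a (-2.74) and Hdc (3.73) did not pass, so the list has no common direction. B cell markers (7 of 8 measured) summed to 1896 to 2905 normalized reads in old and 1948 and 3891 in young macrophages, where Cd79a and Blk were among those at 0. Neutrophil markers (7 of 8 measured) summed to 4.49 to 263 in old and 1.76 and 623 in young macrophages, where S100a9, Ly6g, Camp and Ngp were at 0. Of the B cell, neutrophil and neuron lists 0 genes passed limma's test, and 0 had an unadjusted p under 0.05. The part of these cells in the age differences of the members was not tested.

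Within the family, the make-up of the Ms4a signal was compared by dividing each level by exon length and taking shares of the sum of the 6 members in each library. Ms4a7 made up 34.8% ± 8.28 of the sum in old macrophages (SD, n = 4) and 60.5% and 41.9% in young macrophages. The old libraries ranged from 23.4% to 43.1%, so the lower young share lay inside their range. Auditory nerve (28.7%) and lateral wall (37.4%) macrophages also lay inside it. Ms4a6d made up 22.0% ± 3.81 in old macrophages (SD, n = 4) and 8.43% and 17.2% in young macrophages, and each old library had a larger share of it than each young one. Leaving out young replicate 9 or 15 moved the old minus young difference of Ms4a6d from 9.24 to 4.87 or 13.6 percentage points, and that of Ms4a7 from -16.4 to -7.12 or -25.7. For Ms4a6d the exact two-sided permutation p was 0.133, the smallest that 15 arrangements allow, and 0.533 adjusted over the 6 shares. With the nerve (14.1%) and wall (11.0%) libraries added, the mean share of Ms4a6d was 22.0% in old and 12.7% in young macrophages. Its exact permutation p was then 0.0286, the smallest possible, with an adjusted p of 0.171. The series has no old nerve or wall library, so tissue and age cannot be told apart in that comparison. With the same libraries added, the difference of Ms4a7 was -7.34 percentage points (exact permutation p = 0.429). Ms4a4a held 15.9% ± 3.55 in old macrophages (SD, n = 4) and 10.9% in young macrophages, Ms4a6c 14.4% ± 0.705 and 12.2%, Ms4a6b 8.41% ± 0.873 and 9.25%, and Ms4a4c 4.47% ± 2.46 and 3.62%. None of these shares passed an exact permutation test, whose smallest p here is above 0.05.

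Per kilobase of exon, Ms4a7 ranked first among the members in 7 of 8 macrophage libraries. The exception was old replicate 7, in which Ms4a6d was first. Ms4a4c ranked last in all 8. The summed level of the 6 members was 17908 ± 5050 normalized reads in old macrophages (SD, n = 4), 73334 and 97688 in young macrophages, 86453 in auditory nerve and 69636 in lateral wall macrophages.

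**Figure D3:**
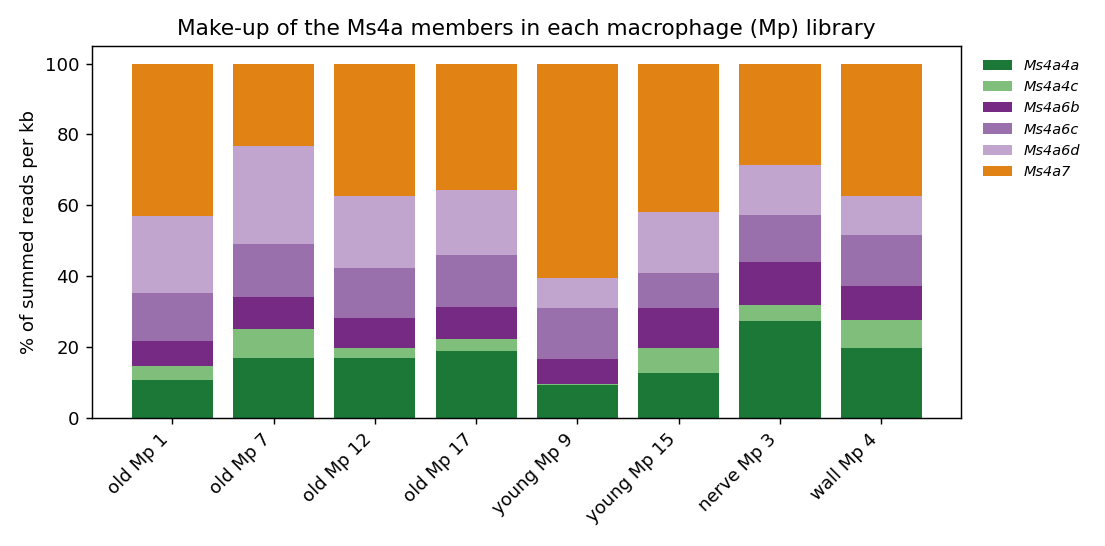
Share of each member, in %, in the summed reads per kb of the 6 members for each macrophage library. Ms4a6d takes 18.6% to 27.4% in old libraries and 8.43% to 17.2% in young cochlea libraries.

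In nonmacrophages no member differed with age by the same fit. The log2 differences, old minus young, were 2.19 for Ms4a6d (SE 0.88, limma adjusted p = 0.165), 1.84 for Ms4a6c, 1.43 for Ms4a7, -0.0032 for Ms4a6b, -0.10 for Ms4a4a and -0.29 for Ms4a4c. Positive values there were not particular to the members. The core macrophage list had a median of 1.46, with Tyrobp (-0.74) and Laptm5 (-0.13) below 0. Of that list only Cx3cr1 passed (3.85, limma adjusted p = 0.00276). The sign of Ms4a6c was not settled, since its mean was 48.2 normalized reads in old and 79.0 in young nonmacrophages, whose young libraries spread from 0 to 208, with -0.73 by edgeR and -0.72 by DESeq2. Without young replicate 2, where Ms4a7 was at 0, the difference of Ms4a7 was 0.054. For 0 of 6 members were all old above all young nonmacrophages, an order that 12.0% of all genes showed. Of the members 0 of 6 passed and 1, Ms4a6d, had an unadjusted p under 0.05 (0.0269), beside 23.1% of all genes. With edgeR 0 of 6 passed, and with DESeq2 0 of the 5 that it gave an adjusted p. Over all genes 1.72% passed by limma, 1.64% higher and 0.0813% lower in old nonmacrophages. Without young replicate 14, the deepest young library, Ms4a6d differed by 2.80 (limma adjusted p = 0.0392). Its levels in this sort reached 42.3 normalized reads, and the old nonmacrophages held 0.0807% to 1.11% of the mean level of old macrophages.

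The age difference in macrophages minus that in nonmacrophages was tested as an interaction. It was -4.22 for Ms4a7 (SE 1.61, limma adjusted p = 0.141) and -3.55 for Ms4a6d (SE 1.39, limma adjusted p = 0.152). For the other members it ran between -3.81 and -0.44 with limma adjusted p of 0.332 to 0.943, so 0 of 6 passed, where 7.94% of all genes did. The unadjusted p was under 0.05 for Ms4a7 (0.0207) and Ms4a6d (0.0237), and for 22.1% of all genes.

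The auditory nerve and lateral wall of young mice gave 1 macrophage library each, so their differences have no replicate check and the intervals given cover counting error only. Ms4a4a was 1.76 times higher in nerve than in wall macrophages (95% exact interval 1.70 to 1.83), and Ms4a6d (1.65) and Ms4a6b (1.63) were placed alike. Ms4a6c was 1.16 times higher in the nerve. Ms4a7 stood at 0.983 of the wall level (0.962 to 1.00), and Ms4a4c at 0.775 (0.738 to 0.815). The mean log2 level of the core macrophage list was 16.0 in the nerve and 14.8 in the wall library. Per core level, all 6 members were therefore lower in the nerve than in the wall library. That order follows from the higher core level of the nerve library, where Csf1r stood at 454592 normalized reads against 135991 in the wall. The share of all genes with that order was not computed, so nothing is read from it about the members.

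The unsorted young cochlea held all members at low levels, 121 normalized reads of Ms4a4c, 141 of Ms4a4a, 188 of Ms4a6d, 333 of Ms4a6b, 472 of Ms4a6c and 807 of Ms4a7. These were 1.82% to 4.30% of the mean of young macrophages. In young nonmacrophages the members stood at 0% to 5.39% of that mean, and in old nonmacrophages at 0.0807% to 4.52% of the mean of old macrophages.

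Variation from mouse to mouse was widest for Ms4a4c. The 4 macrophage libraries with the highest Ms4a4c were also the 4 with the highest Ly6c2 and Ccr2, marker genes of inflammatory monocytes that were picked from the 5 measured monocyte markers after their values were seen. Plac8, Ace and Fn1 did not follow: young replicate 9, lowest in Ms4a4c, held 2529 normalized reads of Plac8 and 730 of Ace, and old replicate 7 held 1313 and 57.1. Fn1 stood at 1188 in young replicate 15, below the 1639 of old replicate 1. Old replicate 7 held 2106 normalized reads of Ms4a4c, 1247 of Ly6c2 and 2449 of Ccr2. Old replicates 1, 12 and 17 held 466 to 593 of Ms4a4c, 9.14 to 304 of Ly6c2 and 357 to 909 of Ccr2, all lower than in replicate 7. Replicate 7 was also the highest old library for Ms4a4a, Ms4a6b, Ms4a6c, Ms4a6d, Csf1r and the core level, but not for Ms4a7. Its high Ms4a4c was thus not particular to Ms4a4c. Young replicate 15 held 6963 of Ms4a4c, 3897 of Ly6c2 and 2030 of Ccr2, and young replicate 9 held 223, 390 and 54.4. Auditory nerve macrophages had 4503 of Ms4a4c, 9939 of Ly6c2 and 11247 of Ccr2, and lateral wall macrophages 5809, 18476 and 20534. Of the monocyte list (5 of 8 measured, none at 0 in a whole group) Fn1 was higher in old macrophages, and the sums were 1678 to 8215 normalized reads in old and 3907 and 10869 in young macrophages. The part of monocytes in the levels of Ms4a4c was not tested.

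**Figure D4:**
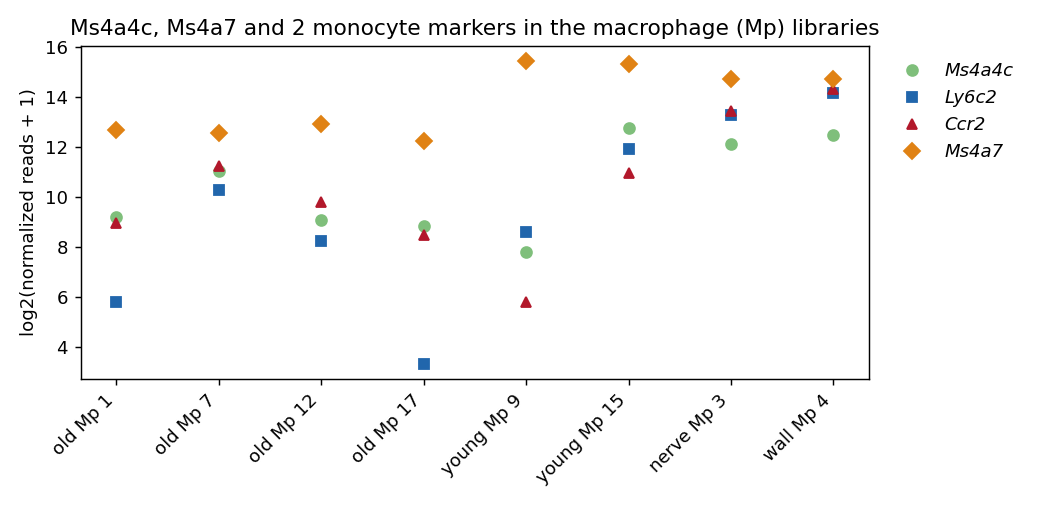
Ms4a4c, the monocyte markers Ly6c2 and Ccr2, and Ms4a7 as log2 of normalized reads plus 1 in each macrophage (Mp) library. Old replicate 7 has the highest Ms4a4c, Ly6c2 and Ccr2 of the old libraries, and also the highest level of every other member except Ms4a7. Ms4a7 stays between 4907 and 7712 normalized reads in the old libraries.

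The nonmacrophage library with the highest Ms4a4a also had high Ms4a4c and Ms4a6c. Young nonmacrophage replicate 2 held 210 normalized reads of Ms4a4a, 194 of Ms4a4c and 208 of Ms4a6c, but 0 of Ms4a7, 0 of Ms4a6d and 3.56 of Ms4a6b. Young nonmacrophage replicates 5 and 6 differed, with 49.0 and 68.5 normalized reads of Ms4a7, 42.2 and 99.5 of Ms4a6b, 0 and 0 of Ms4a6c and 0 and 0 of Ms4a4c. Replicate 14 held members of each kind, with 40.6 normalized reads of Ms4a4c and 108 of Ms4a6c beside 26.2 of Ms4a7, 21.4 of Ms4a6b and 9.09 of Ms4a6d. Replicate 2 also held 2167 normalized reads of Ly6c2 and 1326 of Plac8, a gene of monocytes and other leukocytes, and replicate 6 held 1819 and 561. The other monocyte markers were not highest in replicate 2, which held 39.1 of Ccr2, against 204 in replicate 14, and 0 of Ace, against 84.8 in replicate 6.

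The profile of each member over all 19 libraries was matched with every gene of at least 20 mean normalized reads in macrophages, by the root mean square difference of centred log2 levels. The libraries share the sort that separates macrophages from other cells, so many macrophage genes come out alike. Ms4a7 was closest to Ctss (0.92), the gene of cathepsin S, then Gm5086 and the complement C3a receptor gene C3ar1 (each 1.13). Ms4a6d was closest to Cx3cr1 (1.00), Tlr1 (1.02) and the purinergic receptor gene P2ry13 (1.05), and Ms4a6b to the lysosomal gene Cd68 (1.11), Tbxas1 (1.29) and Arl11 (1.30). Ms4a4a was closest to Lilra5 and C1qc (each 1.52) and Ly86 (1.63). Ms4a4c was nearest to LOC100038947 (1.24), Ptafr (1.63), the receptor for platelet-activating factor, and Cd48 (1.64), and Ms4a6c to Slc11a1 (1.30), LOC100038947 (1.40) and Wfdc17 (1.42). For comparison, the median candidate was 4.39 to 5.26 away. Among the members themselves, Ms4a4c and Ms4a6c (1.37), Ms4a6d and Ms4a7 (1.46) and Ms4a6b and Ms4a7 (1.47) were closest, and Ms4a4c and Ms4a7 farthest apart (3.27).

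Of the other Ms4a genes, 7 of 14 listed were measured and 6 could be tested. For 0 of the 7 did the macrophage libraries of the whole cochlea stand above the nonmacrophage libraries at either age. Of all genes 23.3% did so in the old and 10.5% in the young cochlea. Nothing is read from this count, because the 6 members were taken from the family by that pattern. Ms4a4b, a gene of T cells beside Ms4a4c on the chromosome, had 7.83 to 70.7 normalized reads in old macrophages and 147 and 2289 in young macrophages, a log2 difference of -4.23 (limma adjusted p = 0.0409). Its nonmacrophage levels in the whole cochlea, 20.3 to 38.4 normalized reads in old and 17.6 to 681 in young libraries, overlapped those of macrophages. In the auditory nerve it was 851 in macrophages and 60.1 in nonmacrophages, and in the lateral wall 833 and 150. Of the T cell and NK cell markers, whose sums are given above, 6 of 12 also fell, while Cd3d (2.44) and Cd3e (3.54) had positive log2 differences that did not pass. Their part in the level of Ms4a4b was not tested. Ms4a1, which encodes CD20, was at 0 in all 4 young macrophage libraries and at 11.8 to 153 normalized reads in young cochlea nonmacrophages. Ms4a3, a gene of granulocyte and monocyte progenitors, reached 830 normalized reads in the macrophages and 1216 in the nonmacrophages of the lateral wall, and was at 0 in young cochlea macrophage replicate 9. Ms4a2, Ms4a4d, Ms4a8a and Ms4a15 stayed at or under 297 normalized reads in every library. Ms4a8a held 155 in macrophages and 9.79 in nonmacrophages of the auditory nerve, and 239 and 0 in the lateral wall. In young cochlea macrophages it was at 0 in replicate 9 and 297 in replicate 15, and in young cochlea nonmacrophages at 0.

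**Figure D5:**
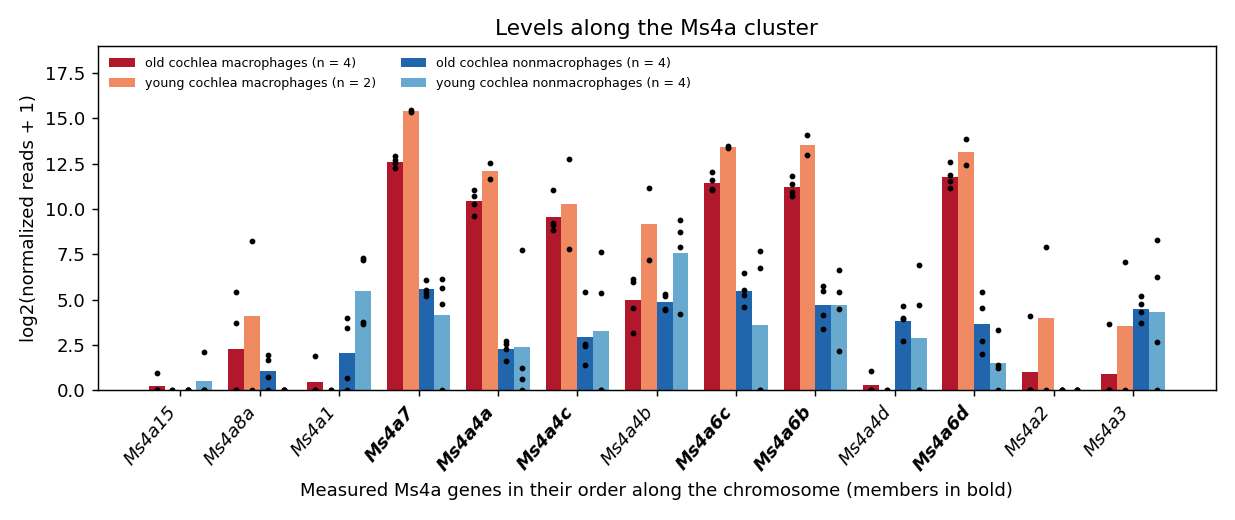
Measured Ms4a genes in their order along the chromosome, with mean log2 of normalized reads plus 1 in old and young cochlea macrophages and nonmacrophages (bars, group means; points, libraries; members in bold). The lowest member value in these macrophages is 223 normalized reads, while Ms4a4b and Ms4a4d, which lie between members, reach down to 7.83 and 0 there.

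Tmem176a and Tmem176b, relatives of the Ms4a family by protein structure, fell with age in macrophages, by 2.46 and 2.06 on the log2 scale (limma adjusted p = 0.00766 and 0.00591). In nonmacrophages their differences were -1.54 and -1.29 and did not pass (limma adjusted p = 0.103 and 0.0944). Unlike the members, their macrophage libraries did not all stand above the nonmacrophage libraries in the whole cochlea. Tmem176b averaged 12271 ± 1461 in old macrophages (SD, n = 4) and 19172 ± 4925 normalized reads in old nonmacrophages (SD, n = 4), without overlap. In the single auditory nerve libraries it was higher in macrophages (58940 against 20224.5), and in those of the lateral wall lower (29596 against 66313). Tmem176a was placed alike in these 2 tissues. Of 13 measured genes of dectin-1, TREM2 and Fc receptor signalling 2 fell in old macrophages and 0 rose, beside 5.57% and 24.1% of all genes. Those were Tyrobp, the adaptor of TREM2, with a log2 difference of -2.91 (limma adjusted p = 0.0403), and Bcl10, part of the CARD9 complex below dectin-1, with -1.02 (limma adjusted p = 0.00396). Clec7a, which encodes dectin-1, had 5286 to 8662 normalized reads in old and 9675 and 15918 in young macrophages, a log2 difference of -0.77 that did not pass (limma adjusted p = 0.354). Trem2 had 4610 to 9179 in old and 17718 and 24477 in young macrophages, with -1.45 (limma adjusted p = 0.206).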

How the data were processed

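Cells of CX3CR1 GFP/+ mice were dissociated and sorted for GFP, and total RNA was made into libraries with SMARTer Ultra and Nextera XT kits, per the labels' protocols. Low-quality RNA had been excluded, and a subset of libraries was run again on the sequencer. The submitters' processing notes name mm10, TopHat2, Partek and DESeq2, without versions. The authors deposited 1 signal value per gene and library, made by dividing each read count by a factor of its library and called normalized reads here. They also deposited p-values and fold changes (a signed score, per the file headers), which are quoted only as theirs.

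The step between low values gave each library's value of 1 read, and with it whole reads: 99.89% of all values above 0, and all values under 10000 reads, came out whole within 0.1 read. A count of 0 allows up to 3 reads. Floors and intervals cover counting error only.

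The 6 members, the gene lists and the likeness rule were chosen with earlier results of these data known. limma 3.58.1 (trend and robust options, R 4.3.3) was fitted to the 14 sorted libraries of the whole cochlea on log2 scale after adding 1. It covered 18441 genes that reached a value of 1 in 2 or more libraries, with Benjamini-Hochberg adjustment over all of them at 0.05. The design had allowed for counts or normalized values. The table held the second, so edgeR 4.0.16 and DESeq2 1.42.0 on the recovered reads served as alternatives. The limma step was checked on simulated data. Such differences understate the change of low genes. All members were named, the genes of lists were named where a result turned on them, and likeness named the 3 nearest genes per member. Shares used exon lengths of GENCODE M21 and exact permutation over libraries. Some genes of the lists are not reported here by name.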

Additional observations from a re-analysis of the deposited data

Results flagged for a closer look

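Of 18 groups of 4 libraries examined, 3 had a library far from the others by Dixon's Q (critical value 0.829). The chance rate of 5% for this rule holds for normally distributed values in independent groups. These groups are the 6 members in the same sets of libraries, some with values near 0, so that rate is no guide here. Ms4a4a in young cochlea nonmacrophage replicate 2 was 210 normalized reads, against 0 to 1.36 in the other 3 libraries. Ms4a4c in old cochlea macrophage replicate 7 was 2106 normalized reads, against 466 to 593 in the others. Ms4a4c in old cochlea nonmacrophage replicate 11 was 42.0 normalized reads, against 1.67 to 4.92 in the others.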

How the results depend on the processing

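No paired analysis was made. Each library has its own replicate number in the series, so these numbers do not show whether a macrophage and a nonmacrophage library came from the same mouse. The fit of 14 libraries and the interaction treated all libraries as independent. Of 66 other settings by member for the age difference in macrophages that left no library out, 57 kept direction and side of the threshold and 9 passed where the 14-library fit did not, as given above. The 5468 genes called in macrophages became 3533 with auditory nerve and lateral wall macrophages added, and 4206 to 8490 when single libraries were left out, the highest without young replicate 15. Leaving out 1 library moved Ms4a4c in macrophages between -3.21 and 1.75, and no other member changed direction there. In nonmacrophages, where all members were low, the 318 called genes became 89 with quantile normalization, 175 with only the groups compared, 3 with edgeR and 1655 with DESeq2 (517 higher, 1138 lower), and 167 to 3562 when 1 library was left out, the lowest without young replicate 2 and the highest without young replicate 14. There Ms4a4a turned to 0.0058 and Ms4a6b to 0.11 with a common total, and Ms4a4a to 0.91, Ms4a4c to 1.10 and Ms4a6b to 0.036 with a pseudocount of 0.1. Ms4a6c turned to -0.73 with edgeR and -0.72 with DESeq2. Leaving out 1 library gave ranges of -0.90 to 1.67 for Ms4a4a, -1.37 to 1.17 for Ms4a4c, -0.84 to 0.65 for Ms4a6b, 0.64 to 3.21 for Ms4a6c and 0.054 to 2.09 for Ms4a7. The old minus young share turned to -1.32 percentage points for Ms4a4a and -0.47 for Ms4a4c with the auditory nerve and lateral wall added. Leaving out 1 library moved it from -2.47 to 4.17 for Ms4a4c, -2.89 to 1.22 for Ms4a6b and -0.063 to 4.37 for Ms4a6c. With so few libraries the shares could not pass in the cochlea alone, so no call there bears on their stability. The cause of these changes was not tested. With 2 young macrophage libraries, leaving out either leaves a lone library that is assumed to vary like the other groups.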
